A study of Mus musculus with 6 samples.

Results

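Members of the TNF receptor superfamily and 2 of their ligands were described in fibroblasts of the pubertal mouse mammary gland, sorted by their surface level of CD34. The 10 genes, 8 receptors (Tnfrsf1a, Tnfrsf10b, Tnfrsf21, Tnfrsf1b, Tnfrsf12a, Tnfrsf19, Tnfrsf11b and Tnfrsf23) and 2 ligands (Tnfsf12 and Tnfsf10), are 10 of the 27179 genes in the count table, and were chosen by symbol and by their measured difference between the 2 populations. Their fold changes are therefore given as a description, without a test. All 10 passed the filter on low counts, which kept 15219 genes.

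Bulk polyA RNA-seq was performed on CD34hi and CD34lo fibroblasts from untreated mice at 6 weeks of age, of the strain FVB/N by the labels and FVB/NJ by the methods, with no transgene or mutation named for either population. Each of 3 pools of 2 mice gave 1 library of either population, gated as Lin–CD24–Pdgfrα+, so that libraries with the same number share their mice. A pooled library is an average over mice and over every fibroblast type in the gate. The comparison asks how the receptors and ligands of this family differ between the CD34hi fraction, in which the study places mesenchymal progenitors, and the CD34lo fraction.

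Receptors of the TNF superfamily bind trimeric ligands through cysteine-rich repeats outside the cell. Some carry an intracellular death domain, through which the adaptors TRADD and FADD can start caspase activation, while others bind TRAF proteins directly and signal mainly to NF-kappaB and to the JNK and p38 kinases. Soluble and decoy receptors take up ligand without passing on a death signal. In stromal cells the family is known for its part in inflammation, matrix remodeling and survival.

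The promoters of the members with large differences are shown because the 3 of them that were matched, Tnfrsf19, Tnfrsf21 and Tnfrsf1b, lie on both sides of the comparison. Sequences are from RefSeq on GRCm38.p6 and hold the 250 bases before an annotated start, read 5′ to 3′ on the strand of the gene. Tnfrsf19 has 2 annotated starts, at chr14:61046856-61047105 (minus strand) and, within the gene, at chr14:61037988-61038237 (minus strand). The latter window overlaps an exon of Gm41168 on the opposite strand. The windows of Tnfrsf21 (chr17:43016305-43016554, plus strand) and Tnfrsf1b (chr4:145246871-145247120, minus strand) overlap no annotated exon. Capitals mark the one match to a searched motif.
Tnfrsf19, outer start: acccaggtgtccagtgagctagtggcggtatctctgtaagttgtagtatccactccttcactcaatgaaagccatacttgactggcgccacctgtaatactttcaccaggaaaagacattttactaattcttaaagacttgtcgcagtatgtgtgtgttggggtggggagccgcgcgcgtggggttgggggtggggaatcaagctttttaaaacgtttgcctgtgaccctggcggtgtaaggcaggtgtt
Tnfrsf19, inner start: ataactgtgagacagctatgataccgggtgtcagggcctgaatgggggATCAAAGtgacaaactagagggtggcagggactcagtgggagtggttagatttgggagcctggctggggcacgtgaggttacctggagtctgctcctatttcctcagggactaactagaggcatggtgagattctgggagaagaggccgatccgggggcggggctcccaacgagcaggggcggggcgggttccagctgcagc
Tnfrsf21: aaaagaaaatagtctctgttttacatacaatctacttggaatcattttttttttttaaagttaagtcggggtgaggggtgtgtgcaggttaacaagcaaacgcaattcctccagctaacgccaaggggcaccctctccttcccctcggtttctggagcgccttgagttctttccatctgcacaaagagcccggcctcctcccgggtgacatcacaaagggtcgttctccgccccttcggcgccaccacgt
Tnfrsf1b: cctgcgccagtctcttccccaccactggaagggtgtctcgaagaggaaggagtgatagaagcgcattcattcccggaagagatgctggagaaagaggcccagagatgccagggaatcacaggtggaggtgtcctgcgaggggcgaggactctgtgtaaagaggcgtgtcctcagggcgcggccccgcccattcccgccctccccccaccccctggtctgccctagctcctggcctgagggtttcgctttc

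In all, 7 of the 10 members matched the promoter table, with 8 windows, and Tnfrsf11b, Tnfrsf10b and Tnfsf12 did not. Only windows on the chromosome of the member itself were counted. The kappaB motif was searched by its usual consensus and AP-1 as TGANTCA, both of them on either strand. The same was done for TCF/LEF as ATCAAAG and for GLI as GACCACCCA, while the TATA box was searched as TATAAA on the strand of the gene only. The inner Tnfrsf19 window held ATCAAAG 202 bases before the start, a motif found in 3.21% of the 32851 windows of the table. None of the other member windows held any of these motifs, whose shares among all windows were 7.25% for kappaB, 6.75% for AP-1, 0.225% for GLI and 7.59% for TATA. The Tnfrsf21 window had the highest ratio of observed to expected CpG among the 8, at 0.768, and the Tnfrsf1b window the highest GC content, at 62.8%. The medians over all windows were 0.373 and 52.4%. A match describes the letters only.

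Libraries held between 28764779 and 52402410 counts, and 3 counts, the floor used here, corresponded to between 0.0572 and 0.104 counts per 1000000 (CPM), covering counting error only. CPM were scaled by the trimmed mean of M values (TMM). Cd34 was at 2571 ± 75.2 CPM in CD34hi and 634 ± 158 CPM in CD34lo (SD, n = 3 each), and Pdgfra was at 754 ± 149 and 1256 ± 197 CPM, so that both populations expressed the receptor they were gated on. Of the 15219 genes tested with edgeR's quasi-likelihood test at an adjusted p under 0.05, 35.6% differed between the populations, 16.9% being higher in CD34hi and 18.7% higher in CD34lo. In 50.1% of the tested genes the CPM of the 2 populations did not overlap. In bulk libraries, fewer cells of a type and less RNA per cell cannot be told apart.

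A gene that passes this threshold is referred to as called. The members are given no call, because their difference was part of how they were selected. In 8 of the 10 the libraries of the populations did not overlap, against 50.1% of all tested genes. This count follows from the same selection. The median log2 fold change of the members was −0.27, with a range from −6.59 for Tnfrsf19 to 5.94 for Tnfrsf11b, while the median over all tested genes was −0.0064. Here and below, fold changes are CD34hi over CD34lo on the log2 scale, so that negative values are higher in CD34lo.

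**Figure D1:**
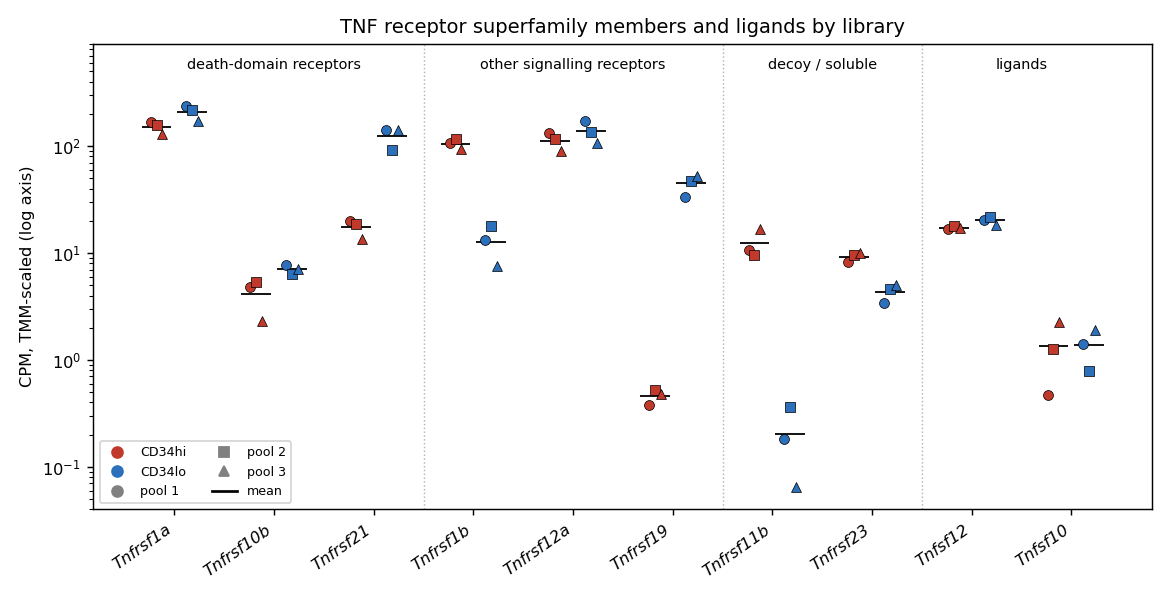
CPM of each member in each library on a log axis, with CD34hi in red, CD34lo in blue, 1 symbol shape per mouse pool and a bar at each population mean. Tnfrsf19 and Tnfrsf21 sat lower in every CD34hi library, Tnfrsf1b, Tnfrsf11b and Tnfrsf23 sat higher, and Tnfrsf12a and Tnfsf10 overlapped.

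The 3 members with a death domain were all lower in CD34hi fibroblasts, by very different amounts. This direction does not hold for every death-domain receptor. Fas, which is no member and is named after its values were seen, was at 15.7 ± 1.38 CPM in CD34hi and 11.6 ± 2.80 CPM in CD34lo. Its log2 fold change was 0.45 (SE 0.18), and it did not pass (adjusted p = 0.0911, edgeR). Tnfrsf21 (death receptor 6, gene 94185, chromosome 17, 43016555 to 43089188, plus strand) was at 20.1, 18.7 and 13.5 CPM in CD34hi pools 1, 2 and 3, and at 142, 91.3 and 142 CPM in the CD34lo pools. Every CD34lo library lay above every CD34hi library, and CD34hi pool 3 was the lowest of the 6. The means were 17.4 ± 3.5 and 125 ± 29.3 CPM, a log2 fold change of −2.85 (SE 0.22), or 7.19-fold higher in CD34lo. Per length, Tnfrsf21 was at percentile 49.0 of tested genes in CD34hi and at percentile 89.7 in CD34lo.

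Tnfrsf1a encodes TNF receptor 1, the main receptor for soluble TNF on most cells (gene 21937, chromosome 6, 125349723 to 125362483, plus strand). It was at 167, 156 and 129 CPM in CD34hi and at 235, 219 and 171 CPM in CD34lo. The ranges did not overlap, but the lowest CD34lo library was close to the highest CD34hi library, and pool 3 was lowest in both populations. Its log2 fold change was −0.47 (SE 0.16), and within the pools the difference was −0.49, −0.49 and −0.41. Without CD34lo replicate 1 it was −0.35.

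Tnfrsf10b is the receptor of TRAIL in the mouse that carries a death domain (gene 21933, chromosome 14, 69767472 to 69784411, plus strand). It was at 4.78, 5.35 and 2.32 CPM in CD34hi and at 7.67, 6.33 and 7.07 CPM in CD34lo. All CD34lo libraries were higher, with the widest gap in pool 3, where CD34hi was at its lowest. The log2 fold change was −0.76 (SE 0.29), and the within-pool values spread from −0.24 in pool 2 to −1.59 in pool 3. Leaving out CD34hi replicate 3 moved it to −0.47. With mouse pool entered as the replicate block it was −0.83.

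Among the signaling receptors without a death domain, Tnfrsf1b and Tnfrsf19 lay at opposite ends. Tnfrsf1b encodes TNF receptor 2, which binds TRAF2 and responds best to membrane-bound TNF (gene 21938, chromosome 4, 145212368 to 145246870, minus strand). Its CPM were 107, 116 and 93.2 in CD34hi and 13.2, 17.7 and 7.59 in CD34lo. The lowest CD34hi library stood well above the highest CD34lo library, and pool 3 was again the lowest of both. Means were 105 ± 11.4 and 12.8 ± 5.06 CPM, a log2 fold change of 3.04 (SE 0.27), or 8.21-fold higher in CD34hi.

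Tnfrsf19, also called TROY, is an orphan-type receptor known from hair follicles and developing epithelium and from the nervous system (gene 29820, chromosome 14, 60963834 to 61046855, minus strand). It was at 0.380, 0.524 and 0.485 CPM in CD34hi, from 17, 19 and 22 counts. In CD34lo it was at 33.7, 47.6 and 52.7 CPM, from 1828, 1323 and 1640 counts. CD34hi libraries were thus close to the floor yet above it, and the difference held in each pool, at −6.29, −6.37 and −6.62. The log2 fold change of −6.59 (SE 0.25) corresponded to a level 96.3-fold higher in CD34lo, the widest gap among the members. Per length, the gene was at percentile 4.34 of tested genes in CD34hi and at percentile 65.3 in CD34lo.

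Tnfrsf12a (Fn14, gene 27279, chromosome 17, 23675445 to 23677449, minus strand) is the receptor for TWEAK and is known to be induced by growth factors and injury. It was at 131, 116 and 89.1 CPM in CD34hi and at 172, 135 and 106 CPM in CD34lo. The populations overlapped, although CD34lo was higher within each pool, with log2 differences of −0.39, −0.21 and −0.26. CD34hi over CD34lo was −0.30 (SE 0.20) on the log2 scale, and −0.077 without CD34lo replicate 1. The gene overlaps Hcfc1r1 on the opposite strand by 80 bases.

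The 2 soluble or decoy receptors were both higher in CD34hi fibroblasts. Tnfrsf11b encodes osteoprotegerin, a secreted receptor that binds RANKL and TRAIL (gene 18383, chromosome 15, 54250619 to 54278484, minus strand). It was at 10.6, 9.55 and 16.6 CPM in CD34hi, from 475, 346 and 753 counts. In CD34lo it was at 0.184, 0.360 and 0.0643 CPM, from 10, 10 and 2 counts. The CD34lo libraries were near the floor, and the third lay under it, whereas every CD34hi library was far above. The log2 fold change was 5.94 (SE 0.43), 61.6-fold higher in CD34hi, and it was 6.60 without replicate 2 and 5.31 without replicate 3. This fold rests on few CD34lo counts.

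Tnfrsf23, a mouse TRAIL receptor that lacks a death domain and acts as a decoy (gene 79201, chromosome 7, 143665807 to 143685872, minus strand), was at 8.23, 9.55 and 9.95 CPM in CD34hi. In CD34lo it was at 3.39, 4.6 and 5.05 CPM. The populations did not overlap, and pool 1 was lowest in both. The log2 fold change was 1.09 (SE 0.19), or 2.14-fold higher in CD34hi, with 1.27, 1.04 and 0.97 within the pools.

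Tnfrsf23 lies 16168 bases from its paralog Tnfrsf22, which in turn lies 8879 bases from Tnfrsf26. Of the 50-base stretches in the transcripts of Tnfrsf23, 18% also occur in Tnfrsf22 and 0% in Tnfrsf26, so that reads of the first pair could be counted on either gene. Tnfrsf22 was higher in CD34hi too, by 1.34 (SE 0.25, adjusted p = 0.00354, edgeR quasi-likelihood test), at 3.04 ± 0.590 against 1.20 ± 0.101 CPM. Tnfrsf26, which shares no such stretch, was instead higher in CD34lo, with a log2 fold change of −2.84 (SE 0.42, adjusted p = 0.000877, edgeR quasi-likelihood test). Per length, the level of Tnfrsf23 was between 1.80 and 2.72 times that of Tnfrsf22 in the 6 libraries.

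Neither ligand among the members stood far apart between the populations. Tnfsf12 encodes TWEAK, the ligand of Fn14 (gene 21944, chromosome 11, 69686240 to 69696098, minus strand). It was at 16.9, 17.7 and 17.1 CPM in CD34hi and at 20.4, 21.8 and 18.4 CPM in CD34lo. All CD34lo libraries were higher by a little, with a log2 fold change of −0.23 (SE 0.12). It lies inside Tnfsfm13, a readthrough gene on the same strand, which had 581 counts over all libraries against 4458 for Tnfsf12.

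Tnfsf10 encodes TRAIL (gene 22035, chromosome 3, 27317077 to 27339665, plus strand). It was at 0.470, 1.27 and 2.27 CPM in CD34hi and at 1.42, 0.791 and 1.90 CPM in CD34lo. The populations were interleaved, and the within-pool differences took both signs, −1.50, 0.65 and 0.25. The log2 fold change was −0.039 (SE 0.55), and it turned positive, to 0.40, without CD34hi replicate 1.

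**Figure D2:**
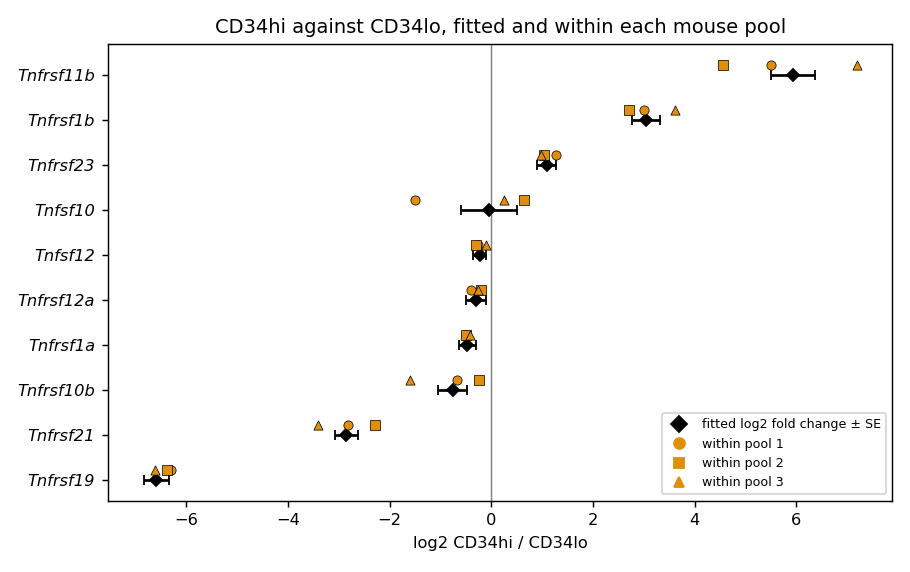
Log2 CD34hi over CD34lo of each member: diamonds are the fitted fold change with its SE, and orange symbols are the values within each mouse pool. The fitted values run from −6.59 for Tnfrsf19 to 5.94 for Tnfrsf11b, whose pool 3 value rests on 2 CD34lo counts, and only Tnfsf10 had pools on both sides of 0.

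Levels were also compared between genes per length, as RPKM, the CPM divided by gene length in kilobases. In both populations Tnfrsf12a was the highest member, at 116 ± 22.1 RPKM in CD34hi and 143 ± 34.3 RPKM in CD34lo, and Tnfrsf1a came next, at 69.9 ± 8.97 and 96.7 ± 15.4 RPKM. Below them the order differed. In CD34hi the next was Tnfrsf1b, at 21.4 ± 2.31 RPKM, and in CD34lo it was Tnfrsf21, at 34.5 ± 8.09 RPKM.

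Tnfsf12 was the fourth member in both, at 10.2 ± 0.244 RPKM in CD34hi and 11.9 ± 1.03 RPKM in CD34lo. In CD34hi it was followed by Tnfrsf21 (4.80 ± 0.965 RPKM) and Tnfrsf11b (4.35 ± 1.35 RPKM), whose ranges overlapped, then by Tnfrsf23 (2.81 ± 0.274 RPKM) and Tnfrsf10b (1.31 ± 0.508 RPKM). Tnfsf10 and Tnfrsf19 closed the order and overlapped as well. In CD34lo Tnfsf12 overlapped with Tnfrsf19 (9.35 ± 2.06 RPKM), and Tnfrsf1b (2.61 ± 1.03 RPKM) with Tnfrsf10b (2.21 ± 0.212 RPKM). Tnfrsf23, Tnfsf10 and Tnfrsf11b were the lowest there, without overlap between neighbors.

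**Figure D3:**
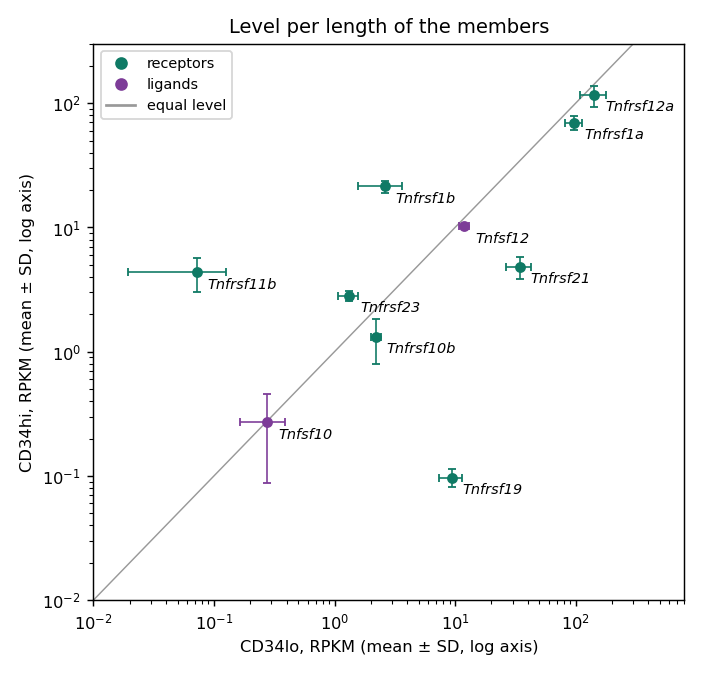
Mean level per length of each member in CD34lo (horizontal) against CD34hi (vertical) in RPKM on log axes, with SD over 3 libraries and a line of equal level. Tnfrsf12a and Tnfrsf1a lie near the line at the top, while Tnfrsf11b and Tnfrsf1b lie above it and Tnfrsf19 and Tnfrsf21 below.

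Receptors that share a ligand were set against each other within libraries. The ratio of Tnfrsf1b to Tnfrsf1a, both of which bind TNF, was 0.282, 0.325 and 0.316 in the CD34hi pools and 0.0247, 0.0354 and 0.0195 in the CD34lo pools, on the RPKM scale. Tnfrsf1a transcripts were thus more abundant in all 6 libraries, by a wider margin in CD34lo. For TRAIL, the ratio of the death-domain receptor Tnfrsf10b to the decoy Tnfrsf23 was 0.601, 0.579 and 0.240 in CD34hi and 2.33, 1.42 and 1.45 in CD34lo. Of these 2, Tnfrsf23 was the more abundant transcript in every CD34hi library, and Tnfrsf10b in every CD34lo library. The ratio leaves out osteoprotegerin (Tnfrsf11b), which binds TRAIL as well. That gene was at 4.35 ± 1.35 RPKM in CD34hi and 0.072 ± 0.0527 RPKM in CD34lo. Also left out is the paralog Tnfrsf22, whose reads could be shared with Tnfrsf23. The effect of leaving out these genes was not tested. For TWEAK, the ratio of the receptor Tnfrsf12a to the ligand Tnfsf12 was 13.6, 11.5 and 9.13 in CD34hi and 14.8, 10.8 and 10.2 in CD34lo, which overlapped.

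The other receptors of the superfamily were examined next, to place the members among their relatives. Of 20 listed, 12 were tested, and 1 was higher in CD34hi and 4 higher in CD34lo, with a median log2 fold change of −0.68. The share called was 41.7%, against 35.6% of all tested genes. In the lists that follow it lay between 33.3% (NF-kappaB genes) and 50% (JNK and p38 relay), save for the shedding proteases and regulators, with 80% of 5 genes. Besides Tnfrsf22 and Tnfrsf26, the called receptors were Tnfrsf18, Tnfrsf4 and Eda2r. Tnfrsf18 (GITR), a costimulatory receptor best known on T cells, was at 0.961, 0.221 and 0.573 CPM in CD34hi and at 29.5, 2.30 and 16.8 CPM in CD34lo, a log2 fold change of −4.76 (SE 0.87, adjusted p = 0.00294, edgeR). Its CD34lo libraries were far apart from each other but all above CD34hi. Without CD34lo replicate 1 the log2 fold change was −3.98, and with limma-voom the adjusted p was 0.0539.

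Tnfrsf4 (OX40), likewise a costimulatory receptor, had a log2 fold change of −1.85 (SE 0.43, adjusted p = 0.0100, edgeR), which was −1.39 with an adjusted p of 0.123 without replicate 1. Eda2r, a receptor for an ectodysplasin isoform, was at 6.47 ± 0.334 CPM in CD34hi and 14.8 ± 3.38 CPM in CD34lo (log2 fold change −1.19, SE 0.19, adjusted p = 0.0014, edgeR). It was called under each of the 17 alternatives tried. Ltbr, the lymphotoxin beta receptor, was at 62.2 ± 2.00 and 74.9 ± 3.60 CPM and did not pass (adjusted p = 0.0682, edgeR).

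Ngfr, the low-affinity neurotrophin receptor, was at 5.5, 44.3 and 3.02 CPM in CD34hi and at 36.3, 47.2 and 26 CPM in CD34lo. CD34hi pool 2 stood with the CD34lo libraries, and the gene did not pass (log2 fold change −1.06, adjusted p = 0.352, edgeR). It passed without CD34hi replicate 2, at −3.09 (adjusted p = 0.000389, edgeR), without replicate 2 of both populations, at −2.87, and with the replicate block, at −1.94 (adjusted p = 0.0113, edgeR). Cd27, Tnfrsf8, Tnfrsf9, Tnfrsf13b, Tnfrsf13c, Tnfrsf17, Tnfrsf25 and Edar were below the filter.

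Of 16 other ligands, 9 were tested, and 0 were higher in CD34hi and 4 higher in CD34lo, with a median log2 fold change of −0.78. Tnf itself, the ligand of Tnfrsf1a and Tnfrsf1b, was at 0.492, 0.414 and 0.353 CPM in CD34hi and at 3.10, 1.58 and 2.48 CPM in CD34lo. It was scarce in both populations, and higher in every CD34lo library (log2 fold change −2.51, SE 0.35, adjusted p = 0.000719, edgeR). Tnfsf15, the ligand of Tnfrsf25, was at 0.915 ± 0.194 and 7.37 ± 6.03 CPM (−3.00, SE 0.55, adjusted p = 0.00297, edgeR), and without CD34lo replicate 2 its log2 fold change was −2.10. Both were called under each of the 17 alternatives.

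Eda, the ectodysplasin gene, was at 10.1 ± 0.914 and 17.1 ± 4.13 CPM (−0.75, SE 0.19, adjusted p = 0.0155, edgeR). Its adjusted p rose to 0.144 without replicate 2 and to between 0.0550 and 0.0695 in 4 other omissions, those of replicate 3, CD34hi replicate 1, CD34hi replicate 2 and CD34lo replicate 3. Tnfsf11 encodes RANKL and is named after its values were seen because it is the ligand of osteoprotegerin. It was at 0.157, 0.193 and 0.0221 CPM in CD34hi, from 7, 7 and 1 counts, the last under the floor. In CD34lo it was at 1.68, 0.396 and 0.418 CPM, from 91, 11 and 13 counts. Its log2 fold change was −2.80 (SE 0.81, adjusted p = 0.0255, edgeR), and the highest adjusted p under the alternatives was 0.175. This value rests on few counts, with CD34lo pool 1 far above the rest. The count of called ligands fell to 2 without replicate 3 or without CD34hi replicate 1. Lta, Ltb, Tnfsf4, Cd40lg, Fasl, Cd70 and Tnfsf14 were below the filter.

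Among the adaptors and ubiquitin ligases that receptors recruit, 17 of 18 were tested (Edaradd was below the filter), and 3 were higher in CD34hi and 3 higher in CD34lo, with a median of −0.051. The 3 higher in CD34lo were TRAF genes. Traf1 was at 0.425, 0.359 and 0.243 CPM in CD34hi and at 6.68, 3.31 and 7.55 CPM in CD34lo (−4.09, SE 0.39, adjusted p = 8.6e-05, edgeR). Traf4 was at 8.69 ± 1.36 and 31.6 ± 6.01 CPM (−1.86, SE 0.18, adjusted p = 8.3e-05, edgeR). These differences were far wider than the spread within either population, and both genes were called under each of the 17 alternatives.

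Traf5 was also higher in CD34lo (−0.85, SE 0.16, adjusted p = 0.0029, edgeR), but it overlaps Gstp-ps on the same strand, which had 4838 counts against 4859 for Traf5. Traf3, Cyld and Rbck1 were higher in CD34hi, by 0.55, 0.70 and 0.47. TRAF3 restrains the noncanonical NF-kappaB pathway, CYLD removes ubiquitin chains from signaling proteins, and RBCK1 is a part of the linear ubiquitin ligase. All 3 calls were lost without replicate 2, with adjusted p-values from edgeR of 0.119, 0.0534 and 0.0615, which left 3 calls in the list. That of Rbck1 was also lost without replicate 1 (adjusted p = 0.0575, edgeR). Ripk1, the kinase recruited to TNF receptor 1, did not pass, at 299 ± 37.5 and 271 ± 52.9 CPM.

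All 11 death effectors were tested, and 3 were higher in CD34hi and 1 higher in CD34lo, with a median of 0.028. Diablo, which encodes an antagonist of the inhibitors of apoptosis, was at 36.7 ± 1.44 and 23.9 ± 0.843 CPM (0.62, SE 0.11, adjusted p = 0.00208, edgeR) and was called under each of the 17 alternatives. Bid, which links caspase-8 to mitochondria, was higher in CD34hi by 1.35 (SE 0.30, adjusted p = 0.00734, edgeR), and did not pass without replicate 1 (adjusted p = 0.0836) or replicate 3 (adjusted p = 0.0545). Casp8, the initiator caspase, had a log2 fold change of 0.43 (SE 0.13, adjusted p = 0.0281, edgeR), which lost its call in 6 of the 9 omissions, with an adjusted p of up to 0.234 without replicate 2. The list had 2 calls without replicate 1. Ripk3, a kinase of necroptosis, was at 12.2 ± 0.673 CPM in CD34hi and 25.7 ± 9.95 CPM in CD34lo (−1.08, SE 0.25, adjusted p = 0.00974, edgeR), and its adjusted p was 0.0688 without replicate 3.

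**Figure D4:**
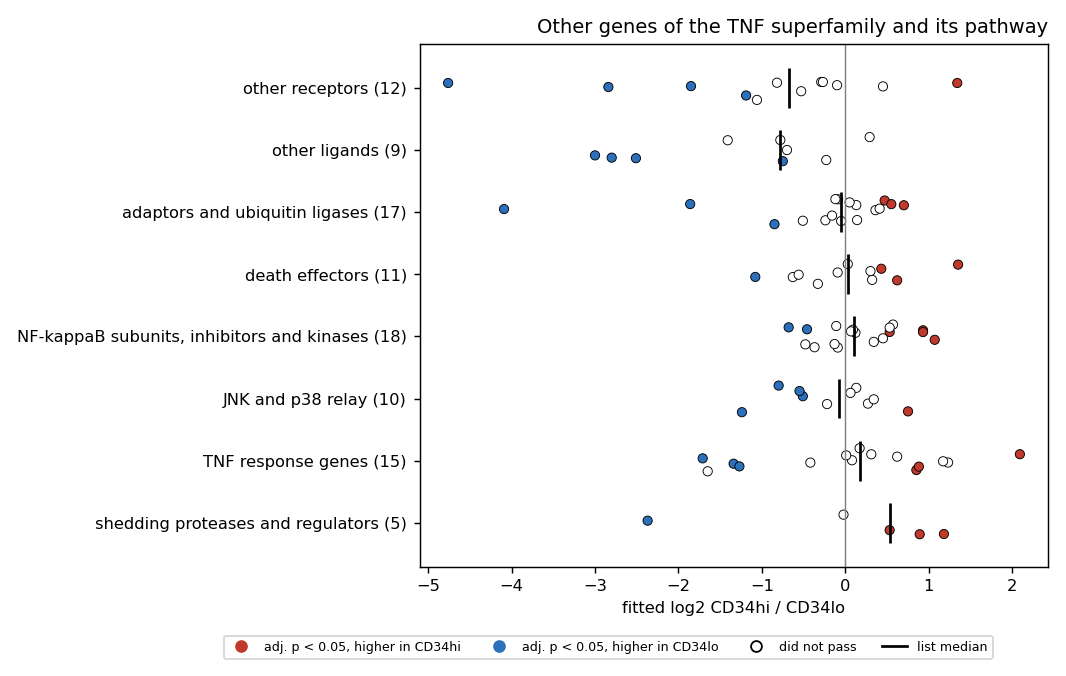
Fitted log2 CD34hi over CD34lo of the tested genes in each list of the pathway, with the number tested in brackets and a bar at the list median. Red and blue points passed an adjusted p under 0.05, and the medians lie between −0.78 for the other ligands and 0.53 for the shedding proteases and regulators.

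All 18 subunits, inhibitors and kinases of NF-kappaB were tested, and 4 were higher in CD34hi and 2 higher in CD34lo, with a median of 0.10. With the replicate block 8 were higher in CD34hi and 3 higher in CD34lo, and with upper-quartile normalization the balance turned, to 3 and 4. Those higher in CD34hi included 3 inhibitors or atypical members. Nfkbia, which encodes IkappaB alpha, was at 780, 875 and 591 CPM in CD34hi and at 372, 538 and 272 CPM in CD34lo (0.93, SE 0.25, adjusted p = 0.0206, edgeR). Within each pool CD34hi was higher, and pool 3 was lowest in both populations. Bcl3 (1.07, adjusted p = 0.0313, edgeR) and Nfkbiz (0.93, adjusted p = 0.0423, edgeR) had similar fold changes.

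Ikbkb, a catalytic kinase of the pathway, was higher in CD34hi by 0.53, whereas Nfkbie and Tab1 were higher in CD34lo, with log2 fold changes of −0.68 and −0.46. The call of Ikbkb was lost without replicate 2 (adjusted p = 0.0725, edgeR). The other 5 genes were each lost in at least 4 of the omissions, among them that of replicate 1. Without replicate 1, or without CD34lo replicate 1, the list had 1 call, and over all omissions it had between 1 and 7. It had 2 without CD34hi replicate 1 or 2, and 3 without replicate 2 or CD34lo replicate 3. The subunits Nfkb1 and Rela, with log2 fold changes of 0.34 and 0.53, did not pass without the block (adjusted p = 0.560 and 0.0762, edgeR) and passed with it (0.0319 and 0.00472).

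In the JNK and p38 relay, 10 of 10 genes were tested, and 1 was higher in CD34hi and 4 higher in CD34lo, with a median of −0.080. Jun, a subunit of AP-1, was at 2257 ± 344 and 5316 ± 855 CPM (−1.24, SE 0.19, adjusted p = 0.0011, edgeR). The 2 JNK genes listed went opposite ways. Mapk9 was higher in CD34hi by 0.75 (SE 0.10, adjusted p = 0.000579, edgeR), and Mapk8 was higher in CD34lo, at −0.55 (SE 0.13, adjusted p = 0.0107, edgeR). The calls of Jun and Mapk9 held under each of the 17 alternatives, while that of Mapk8 was lost without replicate 2 (adjusted p = 0.0894), replicate 3 (0.0512) or CD34hi replicate 2 (0.0521). Map2k3 (−0.80) and Map3k5 (−0.51, adjusted p = 0.05, edgeR) were each lost in 5 or more alternatives. The list had 2 calls without replicate 2 or CD34hi replicate 2, and 3 without replicate 1, CD34hi replicate 3 or CD34lo replicate 1.

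Genes known to respond to TNF were split. Of 16 listed, 15 were tested (Ccl20 was below the filter), and 3 were higher in CD34hi and 3 higher in CD34lo, with a median of 0.17. With the replicate block the counts were 6 and 4. Ptgs2, which encodes cyclooxygenase 2, was at 886, 852 and 630 CPM in CD34hi and at 162, 243 and 153 CPM in CD34lo (2.09, SE 0.22, adjusted p = 0.00014, edgeR). The lowest CD34hi library exceeded the highest CD34lo library. Tnfaip2 and Csf1, the gene of the macrophage growth factor, were higher in CD34hi by 0.88 and 0.85, and both calls were lost without CD34hi replicate 2 (adjusted p = 0.0581 and 0.0698, edgeR). That of Tnfaip2 was also lost without replicate 1 (0.0607) or CD34hi replicate 3 (0.0511), and that of Csf1 without replicate 2 (0.103).

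The adhesion molecules Icam1 and Vcam1 and the stromelysin Mmp3 were higher in CD34lo. Mmp3 was at 117 ± 43.5 and 381 ± 91.4 CPM (−1.71, SE 0.28, adjusted p = 0.00152, edgeR). Icam1 was at 205 ± 57.0 and 518 ± 261 CPM (−1.34, SE 0.35, adjusted p = 0.0162, edgeR). Vcam1 was at 33.0 ± 1.01 and 79.6 ± 25 CPM (−1.27, SE 0.22, adjusted p = 0.00195, edgeR). These 3 genes and Ptgs2 were called under each of the 17 alternatives. The list thus held well-replicated genes on both sides.

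Proteases and regulators that release receptors and TNF from the cell surface were the last list, and all 5 were tested, with 3 higher in CD34hi, 1 higher in CD34lo and a median of 0.53. Adam17, the TNF-converting enzyme, was at 167 ± 17.3 and 116 ± 9.89 CPM (0.53, SE 0.12, adjusted p = 0.0106, edgeR), and its call was lost without replicate 1 (adjusted p = 0.0591) or replicate 2 (0.0804). Adam10 was higher in CD34hi by 0.89 and Timp3, an inhibitor of these proteases, by 1.18. Rhbdf2 encodes iRhom2, which carries ADAM17 to the surface, and was at 2.26 ± 0.673 and 11.6 ± 3.99 CPM (−2.37, SE 0.31, adjusted p = 0.000486, edgeR). Its relative Rhbdf1 was at 119 ± 3.46 and 121 ± 21.5 CPM. The populations did not overlap for 4 of the 5, Timp3, Adam10, Rhbdf2 and Adam17, against 50.1% of all tested genes. The calls of Timp3, Adam10 and Rhbdf2 held under each of the 17 alternatives.

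Mouse pool 3 had low values across part of the pathway, in both populations. Pool 3 was the lowest in CD34hi and in CD34lo for 12 of the 15 TNF response genes (80.0%) and for 11 of the 18 NF-kappaB genes (61.1%), against 17.2% of all tested genes. On the log2 CPM scale, pool 3 differed from the mean of the other pools by −0.65 in CD34hi and −0.84 in CD34lo over the TNF response genes, and by −0.33 and −0.41 over the NF-kappaB genes. Over all tested genes these values were 0.040 and 0.020. Among the members, Tnfrsf1a, Tnfrsf1b and Tnfrsf12a had their lowest value in pool 3 in both populations. The pattern was noticed in the data and has no test, and its part in the results above was not tested.

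**Figure D5:**
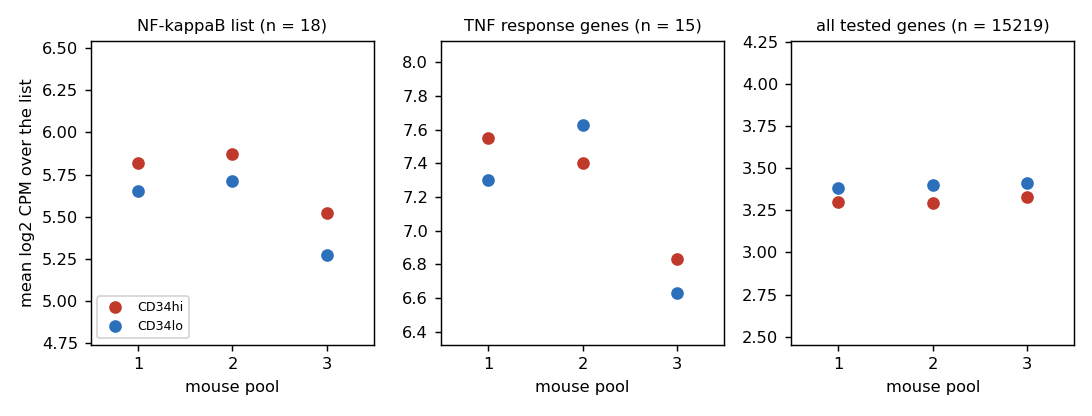
Mean log2 CPM in each mouse pool, with CD34hi in red and CD34lo in blue, over the NF-kappaB list, the TNF response genes and all tested genes, on axes of equal span. Pool 3 is the lowest in both populations in the first 2 panels, by −0.65 and −0.84 against the mean of the other pools for the TNF response genes, and level in the third.

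Markers of other cell types were summed in each library. The leukocyte markers lay between 16.8 and 19.6 CPM in CD34hi and between 5.98 and 11.2 CPM in CD34lo. Cd3e was the largest part of the sum in CD34hi, at 13.9 to 16.0 CPM, and was at 1.67 to 5.43 CPM in CD34lo. Lyz2, the other called leukocyte marker, went the opposite way, with a log2 fold change of −2.05. Csf1r (−0.96) and Cd68 (−0.71) were also higher in CD34lo and did not pass. Ms4a1 was at 0 in all libraries, and Ptprc, which every leukocyte expresses, was at most at 0.360 CPM. The 6 epithelial markers summed to between 32.9 and 39.7 CPM and between 28.3 and 39.1 CPM, and 0 of 6 were called. Endothelial markers summed to between 536 and 698 CPM in CD34hi and between 57.2 and 102 CPM in CD34lo. In CD34hi, Tek was at 473 to 647 CPM, above every member, and Kdr at 33.9 to 70.9 CPM, while Pecam1 was at most at 18.4 CPM in either population. Pericyte markers summed to between 36.8 and 49.1 CPM and between 68.9 and 93.2 CPM, Schwann cell markers to between 6.75 and 7.03 CPM and between 15.5 and 20.9 CPM, and keratinocyte markers to between 15 and 20.2 CPM and between 4.44 and 7.19 CPM. Adipocyte markers stayed at or below 1.81 CPM in sum. By the same test, which called 35.6% of all tested genes, calls were made for 2 of 9 leukocyte markers (4 tested), 5 of 6 endothelial and 5 of 5 pericyte markers. They were also made for 3 of 4 Schwann cell, 2 of 4 keratinocyte (3 tested) and 1 of 3 adipocyte markers (1 tested). The endothelial markers were split, with 2 higher in CD34hi and 3 higher in CD34lo. Of the pericyte markers 1 was higher in CD34hi and 4 higher in CD34lo. The former, Kcnj8, was most of the CD34hi sum, at 34.7 ± 6.37 CPM against 13.3 ± 3.65 CPM in CD34lo. The other pericyte markers, Rgs5, Cspg4, Notch3 and Mcam, had log2 fold changes of −1.46, −2.57, −3.28 and −2.44. Fibroblast markers summed to between 47216 and 62894 CPM in CD34hi and between 75741 and 82707 CPM in CD34lo. The part of these cells in the values of the members was not tested.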

How the data were processed

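Bulk RNA-seq libraries of CD34hi and CD34lo fibroblasts (3 each) were grouped by the labels. The authors used Rsubread to align reads to the mouse genome (GRCm38/mm10) and to count them on genes, and they deposited raw counts, as whole numbers. Annotation, strand setting and treatment of reads with several matches are not given in the sources used here. Symbols came from a RefSeq gene table (25275 of 27179 genes matched, 1904 did not), and gene coordinates and lengths are those of the deposited table.

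The analysis used edgeR 4.0.16 under R 4.3.3 (filterByExpr by population, TMM, quasi-likelihood test, Benjamini-Hochberg adjustment over 15219 genes, threshold 0.05). SE was obtained from the log2 fold change and the F statistic, as their ratio after taking the root of F. CPM use TMM-scaled library sizes, log2 CPM a prior count of 2, and RPKM the deposited lengths. Fibroblasts of both populations came from the same mice, which pairs libraries of the same number. Their deviations from the population means correlated at 0.279, 0.0844 and 0.243 across genes. Replicate libraries differed beyond sampling noise (the chi-square statistic was 22.3 or more times its degrees of freedom).

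The members and gene lists were chosen with earlier results of these data known. Named genes were all members and, in each list, up to 5 called genes per direction with the widest fold change at a mean of at least 1 CPM, up to 2 genes not called with the highest RPKM, and genes below the filter. Called means an adjusted p under 0.05. Alternatives were DESeq2 1.42.0, limma-voom (limma 3.58.1), relative log expression (RLE) and upper-quartile normalization, other filters (none, or 10 counts in every library), the mouse pool as a replicate block, and leaving out each pool or library. Code was tested on simulated data. Promoters were read from RefSeq on GRCm38.p6, and exon overlaps from GENCODE on that build.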

Additional observations from a re-analysis of the deposited data

How the results depend on the processing

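With 3 libraries a population and 2 mice a pool, small differences and genes near the floor were measured with little precision, and each pool weighs heavily. Of 169 recomputed fold changes of the members, 164 kept their direction and 5, all of Tnfsf10, reversed. Without one library or pool Tnfsf10 ranged from −0.67 to 0.42. Tnfrsf12a ranged from −0.45 to −0.077 and Tnfrsf1a from −0.59 to −0.35. Over the same omissions Tnfrsf10b ranged from −1.05 to −0.47. Of 917 recomputed values of other named genes, 809 kept direction and side of the threshold, 74 lost the call, 23 gained one and 11 reversed.

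Leaving out one pool or library gave 3468 to 5236 called genes over the whole table (5411 with all libraries, 3468 without replicate 1), 2 to 4 among other ligands, 3 to 7 among adaptors, 2 to 5 among death effectors, 1 to 7 among NF-kappaB genes and 2 to 5 in the JNK and p38 relay. With mouse pool entered as the replicate block, 11 NF-kappaB genes and 10 TNF response genes were called, and 12 and 10 with the block in limma-voom, where 8 other receptors were. Among the named genes that are no members the block in edgeR changed the calls of Ngfr, Birc3, Nfkb1, Rela, Mapk14 and Tnfaip6, all gained, and no other.

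Reversals elsewhere were in genes that did not pass. Cflar was at −0.025 with upper-quartile normalization and ranged from −0.057 to 0.099 over the omissions. Rhbdf1 was at 0.0034 without the filter and ranged from −0.11 to 0.17. The ranges were −0.68 to 0.17 for Tnfsf13b, −0.057 to 0.23 for Mapkapk2 and −0.017 to 0.68 for Cxcl1. Under the filter of 10 counts in every library, Tnfrsf11b, Tnfrsf18 and Tnfsf11 were not tested, among the receptors and ligands described with values. Upper-quartile normalization gave 3 NF-kappaB genes higher in CD34hi and 4 higher in CD34lo, and moved the median of all genes to −0.059. The causes were not tested.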
